A study of Mus musculus with 12 samples.

Results

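Doxorubicin (DOX) and its prodrug DPD were compared in MC38 tumours of mice, pooled over the presence of the antibody-catalyst conjugate Ru-PD-L1. The comparison used 8 of the 12 RNA-seq libraries of the study, chosen by the agent named in the labels: 4 libraries from prodrug treatment and 4 from DOX treatment. MC38 is a mouse colon carcinoma line, here implanted under the skin of the left flank of C57BL/6J mice aged 8 weeks. Treatment began on day 9 and was repeated every 3 days, and tumours were collected on day 20. In the stratum without the conjugate, 2 libraries came from mice given 14 µg DOX (0.56 mg/kg) and 2 from mice given 14 µg DPD (0.56 mg/kg), both by injection into the peritoneum. In the stratum with the conjugate, the drug was injected beside the tumour 6 hours after Ru-PD-L1, at 14 µg of DOX in 2 libraries (R+X) and 14 µg of DPD in 2 libraries (R+D). The dose of the conjugate in these combined groups is not stated. R+X was read as the combination with DOX and R+D as that with DPD, and an exchange of these readings would turn the sign of every value of that stratum. Conjugate and drug route differ together between the strata, so they cannot be told apart, but within a stratum both drugs were given by 1 route at 1 dose by mass. The groups with neither drug, PBS alone (Ctrl) and 20 µg Ru-PD-L1 alone (RP, 0.80 mg/kg), stayed out of the tests and are quoted as levels only. No label ties the 2 libraries of a group to different mice. The p-values therefore measure the spread between libraries alone, and that spread may be technical.

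DOX inserts into DNA and traps topoisomerase II on cleaved strands, and the resulting breaks activate p53 and its target genes. It is also known for a form of tumour cell death that alerts the immune system. A prodrug is a masked form that acts after it is converted to the parent drug, and Ru-PD-L1 joins a catalyst to an antibody against the checkpoint ligand PD-L1. T cells and natural killer cells that enter a tumour release interferon gamma, which induces guanylate-binding proteins, the chemokines Cxcl9 and Cxcl10, antigen presentation and PD-L1 itself (gene Cd274).

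Library totals ran from 46547114 to 56462259 counts. Libraries within a group differed most in DOX, where the ratio of chi-square to its degrees of freedom was 210, and least in R+X, at 13.2. Levels are given as CPM, counts scaled to library size. The 16 listed markers of intestinal epithelium and MC38 summed to 23.3 to 35.5 CPM in the 8 libraries, mostly from Cdh1 (472 to 946 counts) and Lgals4 (363 to 623 counts). Cdx2, a transcription factor of intestinal epithelium, had 0 counts in all 8 libraries, and the keratin genes Krt8 and Krt18 had 0 counts in 4 of them and at most 14 and 7 counts.

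No gene passed the pooled test. At an adjusted p under 0.05, edgeR's quasi-likelihood test called 0 of 18861 genes (0%) higher and 0 (0%) lower in prodrug libraries, and the smallest adjusted p was 0.247. At an unadjusted p under 0.05 there were 1433 genes (7.6%), of which 968 (5.13%) were higher and 465 (2.47%) lower with the prodrug. Of all 18861 genes, 9147 (48.5%) had a pooled fold change above 0. Limma-voom called 0 genes as well, whereas DESeq2 called 145 of 17032 genes (0.851%) higher and 35 (0.205%) lower. Leaving out DPD replicate 1 brought 2 genes past edgeR's threshold, Cpxm2 (adjusted p = 0.0394) and Ccn3 (adjusted p = 0.0483). For genes with a mean of at least 1 CPM, the 95% interval of the log2 fold change reached 0.37 to either side at the median, and for 89.9% of these 14301 genes it lay within 1 log2 unit of no difference.

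Within the strata the tests also called 0 genes by edgeR. At an unadjusted p under 0.05 there were 711 genes (3.77%) for DPD against DOX and 833 (4.42%) for R+D against R+X, and DESeq2 called 14 and 40 genes. The sign of the difference was the same in both strata for 11731 genes (62.2%), 5650 (30%) higher and 6081 (32.2%) lower with the prodrug. A stricter condition asked that both prodrug libraries lie above, or below, both DOX libraries in each stratum, and is called no overlap here. It held for 1017 genes higher (5.39%) and 717 lower (3.8%) with the prodrug. Among those 1017 genes 306 differed at least 2-fold in the pooled fit, against 57 of the 717 lower genes. Only 83 of the 306 and 10 of the 57 had a mean of at least 1 CPM. All 4 prodrug libraries lay above all 4 DOX libraries for 550 genes (2.92%) and below them for 317 (1.68%). The no-overlap total of 1734 (9.19%) depends on the number of libraries, since fewer libraries separate more easily: omitting DOX replicate 2 gave 4324, omitting DOX replicate 1 gave 4089 and omitting DPD replicate 1 gave 3780. Over the genes tested, the 2 strata's log2 fold changes correlated with a Spearman rho of 0.288 and a Pearson r of 0.189. These strata share no library, and genes are not independent replicates.

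**Figure D1:**
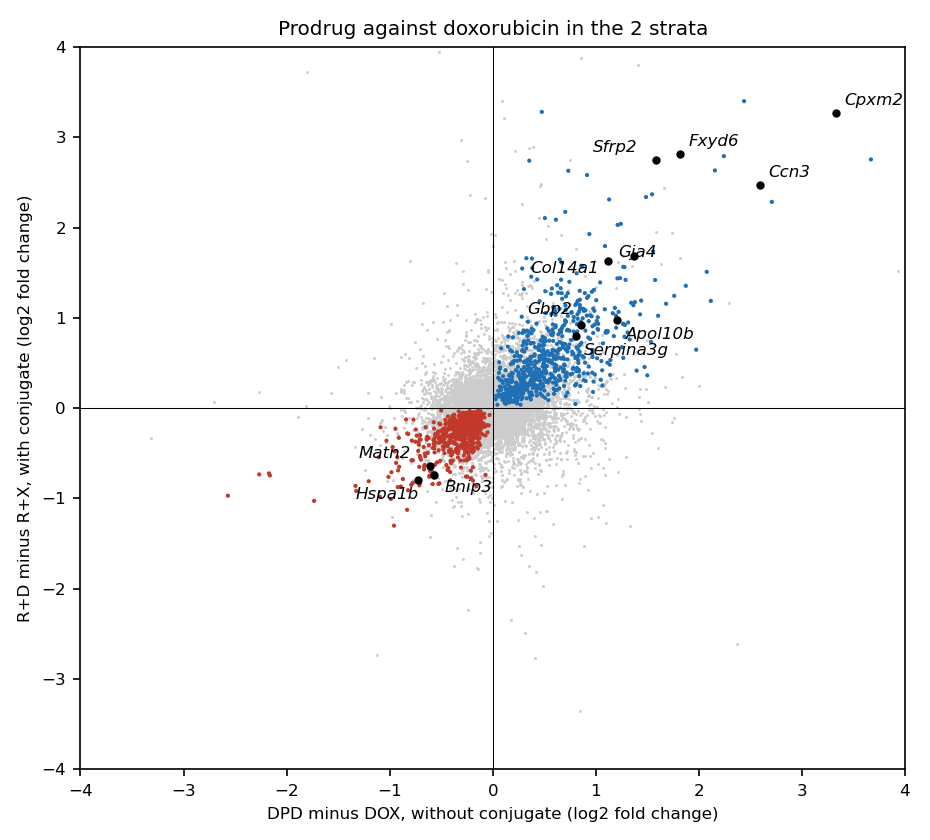
Log2 fold change of each gene with a mean of at least 1 CPM, DPD minus DOX on the x axis and R+D minus R+X on the y axis. Blue and red points are the 667 and 631 of these genes with no overlap in either stratum (higher and lower with the prodrug), grey points all others, and 23 genes lie outside the axes. Cpxm2 lies highest of the named genes, at 3.33 without and 3.27 with the conjugate, and Hspa1b, Bnip3 and Matn2 lie between -0.80 and -0.57 in both.

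The 12 named genes of smallest p that were higher in both strata without overlap included Serpina3g and Gbp2 of the interferon gamma list. None passed edgeR's test, and all 12 had an adjusted p under 0.05 in DESeq2. They were ranked by p in the same libraries, so the DESeq2 result is no independent support. Lack of overlap was a condition of choice, here and for the 12 lower genes named below. Apol10b (chromosome 15, 77584154 to 77598542, GRCm38), a member of the apolipoprotein L family, came first. Its level was 5.44 and 6.40 CPM in the DOX libraries and 12.4 and 14.98 CPM in the DPD libraries. With the conjugate it was 10.1 and 9.02 CPM in R+X and 18.9 and 18.7 CPM in R+D. The pooled log2 fold change of Apol10b was 1.09 ± 0.14 (SE, edgeR adjusted p = 0.247).

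Serpina3g, an interferon-inducible inhibitor of intracellular proteases, stood second. It measured 36.4 and 43.5 CPM in DOX, 70.4 and 69.1 CPM in DPD, 60.3 and 53.1 CPM in R+X, and 102 and 94.9 CPM in R+D. The log2 fold change was 0.80 in each stratum, and 0.80 ± 0.11 in the pooled fit (SE, edgeR adjusted p = 0.247). Its neighbour Serpina3f had a pooled log2 fold change of 1.42 ± 0.22 (SE, edgeR adjusted p = 0.266). Both belong to a cluster of close copies, so how reads were shared among the copies is uncertain.

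Gbp2, an interferon-induced GTPase, had 178 and 221 CPM in DOX and 324 and 400 CPM in DPD. In R+X it had 346 and 217.2 CPM and in R+D 506 and 564 CPM, so that 1 R+X library reached the DPD range while each stratum on its own showed no overlap. The pooled log2 fold change was 0.89 ± 0.16 (SE, edgeR adjusted p = 0.349). Gbp4 gave 1.13 and Cxcl10, a chemokine that draws T cells, 0.87 on the same scale. Cxcl10 stood at 41.1 and 60.8 CPM in DOX, 91.6 and 83.8 in DPD, 68.5 and 44.8 in R+X, and 126 and 94.7 in R+D, and all 4 prodrug libraries were above all 4 DOX libraries.

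The interferon gamma list, as a whole, leaned the same way. It includes Serpina3g, Gbp2 and Cxcl10 and was chosen with earlier results of these data known, so its counts are no independent support. Of its 27 tested members 23 were higher and 2 lower with the prodrug in both strata, beside 30% and 32.2% of all genes, and 14 were higher with no overlap, beside 5.39%. The median log2 fold change was 0.68, with 0.72 without and 0.68 with the conjugate, against -0.0089 over all genes tested. None of the 27 passed edgeR's test. At an unadjusted p under 0.05, 18 were higher (5.13% of all genes), and 10 passed in DESeq2 (0.851% of all genes, higher). The receptor genes Ifngr1 and Ifngr2 had pooled values of 0.08 and -0.07, and the receptor's kinases Jak1 and Jak2 -0.14 and -0.03. In bulk tissue, fewer cells of a type and less RNA per cell cannot be told apart, here and for the marker lists that follow.

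The promoters of 3 of these genes are shown because they hold the letters through which interferon signalling is known to act. Each sequence is the 250 bases before the RefSeq start (GRCm38.p6), read 5′ to 3′ on the gene's own strand, and capitals mark a match to GAAANNGAAA (the interferon-stimulated response element type) or TTCNNNGAA (the gamma-activated site type) on either strand.
Gbp2 (chr3:142620413-142620662, plus strand): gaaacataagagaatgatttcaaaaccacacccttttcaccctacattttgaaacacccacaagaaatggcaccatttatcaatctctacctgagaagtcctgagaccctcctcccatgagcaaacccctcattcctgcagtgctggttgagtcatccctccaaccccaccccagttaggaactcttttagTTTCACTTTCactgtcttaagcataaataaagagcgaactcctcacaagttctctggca
Cxcl10 (chr5:92348890-92349139, minus strand): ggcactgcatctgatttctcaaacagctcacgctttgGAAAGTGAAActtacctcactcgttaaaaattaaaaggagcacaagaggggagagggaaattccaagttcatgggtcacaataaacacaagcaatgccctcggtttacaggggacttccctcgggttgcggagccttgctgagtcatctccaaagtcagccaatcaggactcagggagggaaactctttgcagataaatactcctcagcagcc
Serpina3g (chr12:104235897-104236146, plus strand): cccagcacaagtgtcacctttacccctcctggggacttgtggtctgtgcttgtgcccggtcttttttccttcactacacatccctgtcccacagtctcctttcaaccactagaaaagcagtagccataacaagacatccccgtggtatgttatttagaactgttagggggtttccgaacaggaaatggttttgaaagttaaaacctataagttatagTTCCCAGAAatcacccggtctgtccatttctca
The first matching base lies 59 bases before the start in Gbp2, 213 in Cxcl10 and 33 in Serpina3g. These 3 were picked for a match. The windows of Apol10b, the first gene by p, and of Cd274, a list member with no overlap, held neither motif. Of the 14 interferon gamma genes with no overlap, 10 had a window in the table, and 6 of the 10 held GAAANNGAAA and 5 of the 10 TTCNNNGAA. Of the whole tested list, 21 genes had a window and 8 of them (38.1%) held each motif. Among the 13208 tested genes with a window the shares were 3.31% and 7.35%, and among the 647 higher no-overlap genes with a window 5.87% and 9.43%. The list was assembled from known interferon targets together with Ifng, its receptor genes and their kinases. Its share therefore describes the list and not the drugs, and a match is a description, not a site.

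Among lymphocyte markers, all 19 tested T cell markers had a higher value in both strata (30% of all genes) and 14 showed no overlap (5.39% of all genes), with a median log2 fold change of 1.00, 0.88 without and 1.13 with the conjugate. None passed edgeR's test, 17 were higher at an unadjusted p under 0.05 (5.13% of all genes) and 4 passed in DESeq2 (0.851% of all genes, higher). Cd3g, a chain of the T cell receptor complex, had 1.61 and 1.38 CPM in DOX, 2.47 and 3.70 in DPD, 2.32 and 1.28 in R+X, and 3.66 and 5.80 in R+D. All 4 prodrug libraries lay above all 4 DOX libraries, and the pooled log2 fold change was 1.22 ± 0.27 (SE, edgeR adjusted p = 0.358). Zap70, the kinase that carries the receptor's signal, gave 1.04 and Cd3e 1.10. Cd8a, which marks cytotoxic T cells, gave 0.90, with a 95% interval of 0.27 to 1.53.

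Of the 20 cytotoxic and natural killer cell markers, 18 were higher and 1 lower in both strata (30% and 32.2% of all genes), and 12 were higher without overlap (5.39%). The median log2 fold change of the list was 0.79. Klrk1, the activating receptor NKG2D, stood at 1.22 and 1.54 CPM in DOX and 3.13 and 4.31 CPM in DPD. It stood at 2.18 and 1.53 CPM in R+X and 3.31 and 4.31 CPM in R+D. No library of either drug overlapped with the other, and the pooled value was 1.23 ± 0.23 (SE, edgeR adjusted p = 0.349). Gzmb, a granule protease of killer cells, had 7.71 and 6.14 CPM in DOX, 9.88 and 14.6 in DPD, 10.7 and 7.28 in R+X, and 15.001 and 25.9 in R+D. The pooled log2 fold change of Gzmb was 1.01 (95% interval 0.49 to 1.52), and that of Nkg7, another granule protein, 1.13. Ifng itself lay between 0.276 and 1.91 CPM in all 8 libraries, its groups overlapped, and its interval ran from -0.67 to 1.74.

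Of 9 regulatory T cell markers 7 were higher in both strata (30% of all genes) and 2 without overlap (5.39%), with a median of 0.62. Foxp3, their defining transcription factor, had 0.928 and 0.993 CPM in DOX, 1.33 and 3.45 in DPD, 1.06 and 0.804 in R+X, and 2.04 and 1.28 in R+D, and a pooled log2 fold change of 1.07 ± 0.34 (SE, edgeR adjusted p = 0.463). With a red blood cell score as a covariate the list's median was 0.20.

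Skeletal muscle transcripts were highest in 1 of the same libraries and leaned towards the prodrug in both strata. The summed level of the 22 muscle markers was 88.8 to 134 CPM in 7 of the 8 libraries and 523 CPM in R+D replicate 2. Much of the sum in those 7 came from Eno3, which had 3462 to 5253 counts over the 8 libraries. The mean log2 CPM of the tested muscle markers was -0.31 and -0.54 in DOX and 0.15 and 0.29 in DPD. It was 0.45 and -0.20 in R+X and 0.79 and 3.98 in R+D. R+D replicate 2 also held the highest summed T cell markers, 166 CPM against 92.9 to 137 CPM in the other 7. With a muscle score as a covariate the median of the T cell list was 0.54, that of the cytotoxic list 0.46 and that of the interferon gamma list 0.55. Without R+D replicate 2 these medians were 0.72, 0.58 and 0.67. The part of muscle tissue in the lymphocyte values was not tested beyond these fits.

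**Figure D2:**
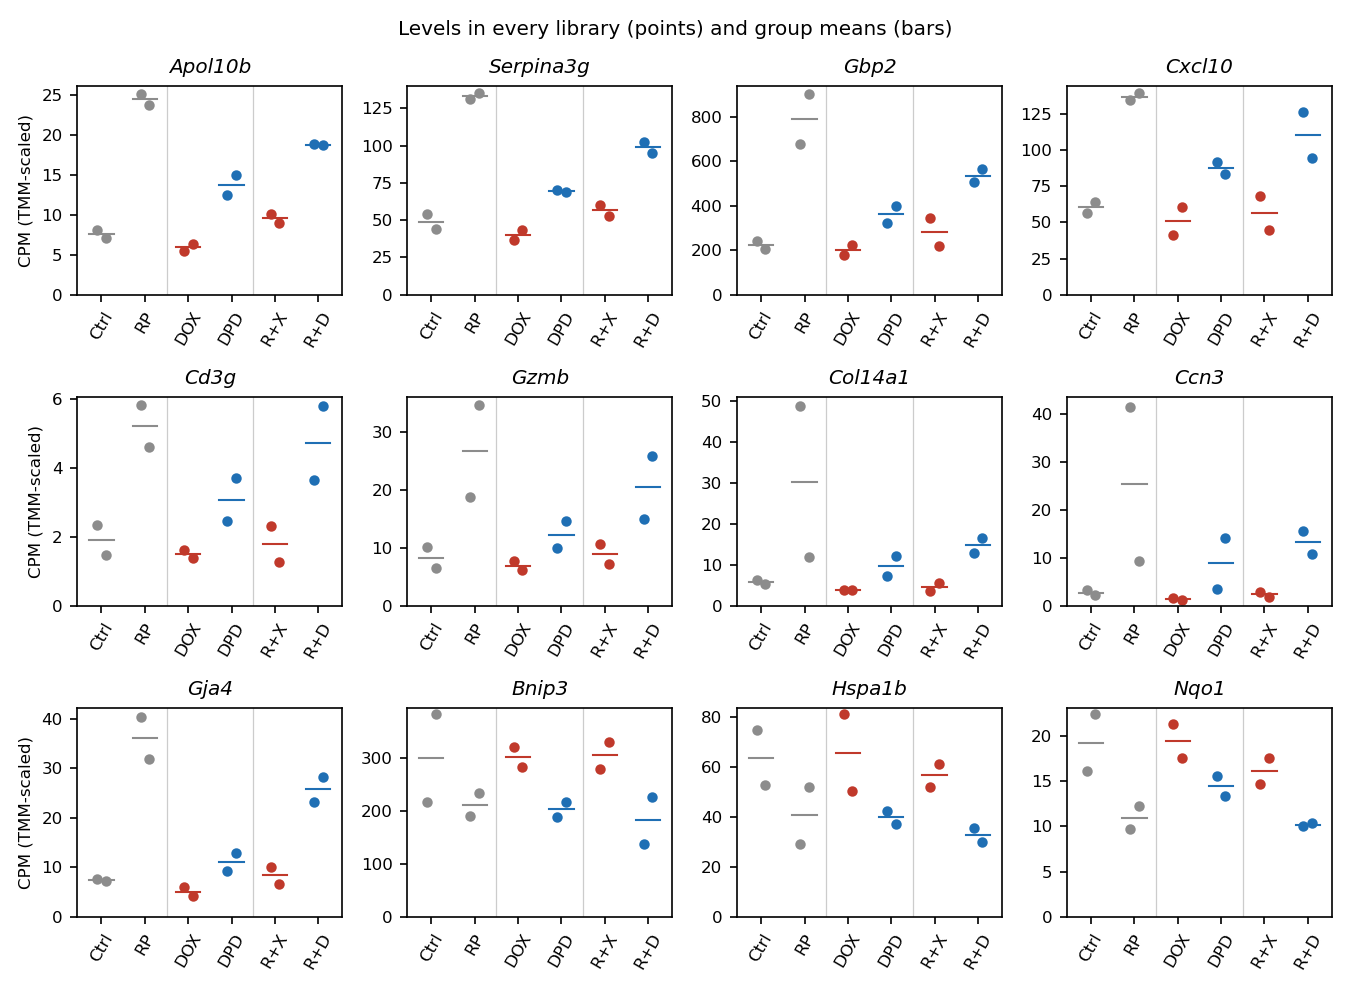
Level of 12 genes in CPM (y axis, from 0) in each of the 12 libraries, by group. Points are libraries and bars group means, in red for DOX, blue for the prodrug and grey for groups with neither drug. In each stratum both prodrug libraries lie above both DOX libraries for 9 genes, and below them for Bnip3, Hspa1b and Nqo1.

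Antigen presentation genes showed smaller differences. Of 18 tested members of the MHC class I list 12 were higher and 3 lower in both strata (30% and 32.2% of all genes), 3 were higher without overlap (5.39%), and the median was 0.24. The count of 12 was 5 without DOX replicate 2. Nlrc5, the transactivator of these genes, had a log2 fold change of 0.70 (95% interval 0.24 to 1.16), and Tapbp, a chaperone of peptide loading, 0.37 (0.11 to 0.63). For Tap1, a peptide transporter, the value was 0.47 and the libraries overlapped. The list's median was 0.37 without DOX replicate 1, 0.14 without DOX replicate 2 and 0.09 with the muscle score. The median of the 11 MHC class II genes was 0.57 for DPD against DOX and -0.11 for R+D against R+X. Of these genes 2 were higher in both strata (30% of all genes). Cd274 (PD-L1), the target of the conjugate's antibody, had 14.0 and 24.2 CPM in DOX, 27.8 and 35.003 in DPD, 26.98 and 24.8 in R+X, and 31.6 and 36.3 in R+D. All 4 prodrug libraries were above all 4 DOX libraries for Cd274, with a pooled log2 fold change of 0.56 ± 0.18 (SE, edgeR adjusted p = 0.485).

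Type I interferon genes had a smaller median difference. Of 26 members 15 were higher and 1 lower in both strata (30% and 32.2% of all genes), and 2 were higher without overlap, a share near the 5.39% of all genes. The median was 0.15, and 0.052 without R+D replicate 1 and 0.26 without DOX replicate 2. Isg15, a ubiquitin-like protein induced by type I interferon, had an interval from -0.25 to 0.76. Of 10 genes of the cGAS and STING pathway, which senses DNA in the cytosol, 7 were higher in both strata (30% of all genes) and 3 without overlap (5.39%). The median was 0.14, and 0.058 without DOX replicate 2. Zbp1, a sensor of nucleic acids in the cell that can start necroptosis, had 31.9 and 27.7 CPM in DOX, 39.8 and 46.3 in DPD, 33.2 and 26.03 in R+X, and 50.4 and 58.9 in R+D. It was separated in both strata with a pooled value of 0.71 ± 0.14 (SE, edgeR adjusted p = 0.349).

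Col14a1, a collagen that binds to fibrils, had 3.74 and 3.75 CPM in DOX, 7.25 and 12.2 in DPD, 3.69 and 5.48 in R+X, and 12.9 and 16.7 in R+D. Its log2 fold change was 1.37 without and 1.69 with the conjugate, and 1.53 ± 0.22 in the pooled fit (SE, edgeR adjusted p = 0.266). Ccn3, a secreted protein of the matrix, had 1.66 and 1.28 CPM in DOX, 3.57 and 14.1 in DPD, 2.92 and 1.86 in R+X, and 15.7 and 10.8 in R+D. The 2 DPD libraries lay far apart, both above DOX, and the pooled value was 2.53 ± 0.39 (SE, edgeR adjusted p = 0.266). Cpxm2, a secreted carboxypeptidase-like protein, and Sfrp2, a secreted modulator of Wnt signalling, gave 3.30 and 2.17. With 1 library left out, Cpxm2 ran from 2.52 to 3.63 and Sfrp2 from 1.82 to 2.49. The lowest value of Cpxm2 over its 19 alternatives was 2.00.

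Gja4, the vessel gap junction protein connexin 37, was 5.97 and 4.19 CPM in DOX, 9.17 and 12.8 in DPD, 10.1 and 6.57 in R+X, and 23.3 and 28.2 in R+D. Its pooled log2 fold change was 1.37 ± 0.21 (SE, edgeR adjusted p = 0.266). Serping1, the C1 inhibitor of the complement system, gave 1.10, Fxyd6, a modulator of the sodium pump, 2.32, and Nup210, a protein of the nuclear pore, 0.95. The 5 genes Ccn3, Cpxm2, Sfrp2, Col14a1 and Fxyd6 were also high in RP replicate 1, at 41.6, 15.1, 27.8, 48.7 and 11.2 CPM, a library with 430 CPM of summed muscle markers. Rgs5, a marker of pericytes, gave 1.25 (95% interval 0.57 to 1.94).

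The matrix list as a whole held members in both directions. Of 26 collagen and matrix genes 7 were higher and 13 lower in both strata (30% and 32.2% of all genes), 2 were higher and 7 lower without overlap (5.39% and 3.8% of all genes), and the median was -0.0092, or -0.11 to 0.015 with 1 library left out. Mmp2, a secreted gelatinase, had 1922 and 1613 CPM in DOX and 1465 and 1089 CPM in DPD. With the conjugate it had 1273 and 1571 CPM in R+X and 996 and 1015 CPM in R+D, and the pooled log2 fold change was -0.48 ± 0.13 (SE, edgeR adjusted p = 0.379). Col3a1, a fibrillar collagen, gave -0.56 and Col6a1 -0.37, whereas Col15a1, a collagen of basement membranes, gave 0.54. Of 16 fibroblast and pericyte markers 10 were higher and 4 lower in both strata (30% and 32.2% of all genes). Without overlap, 5 were higher and 2 lower (5.39% and 3.8% of all genes).

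**Figure D3:**
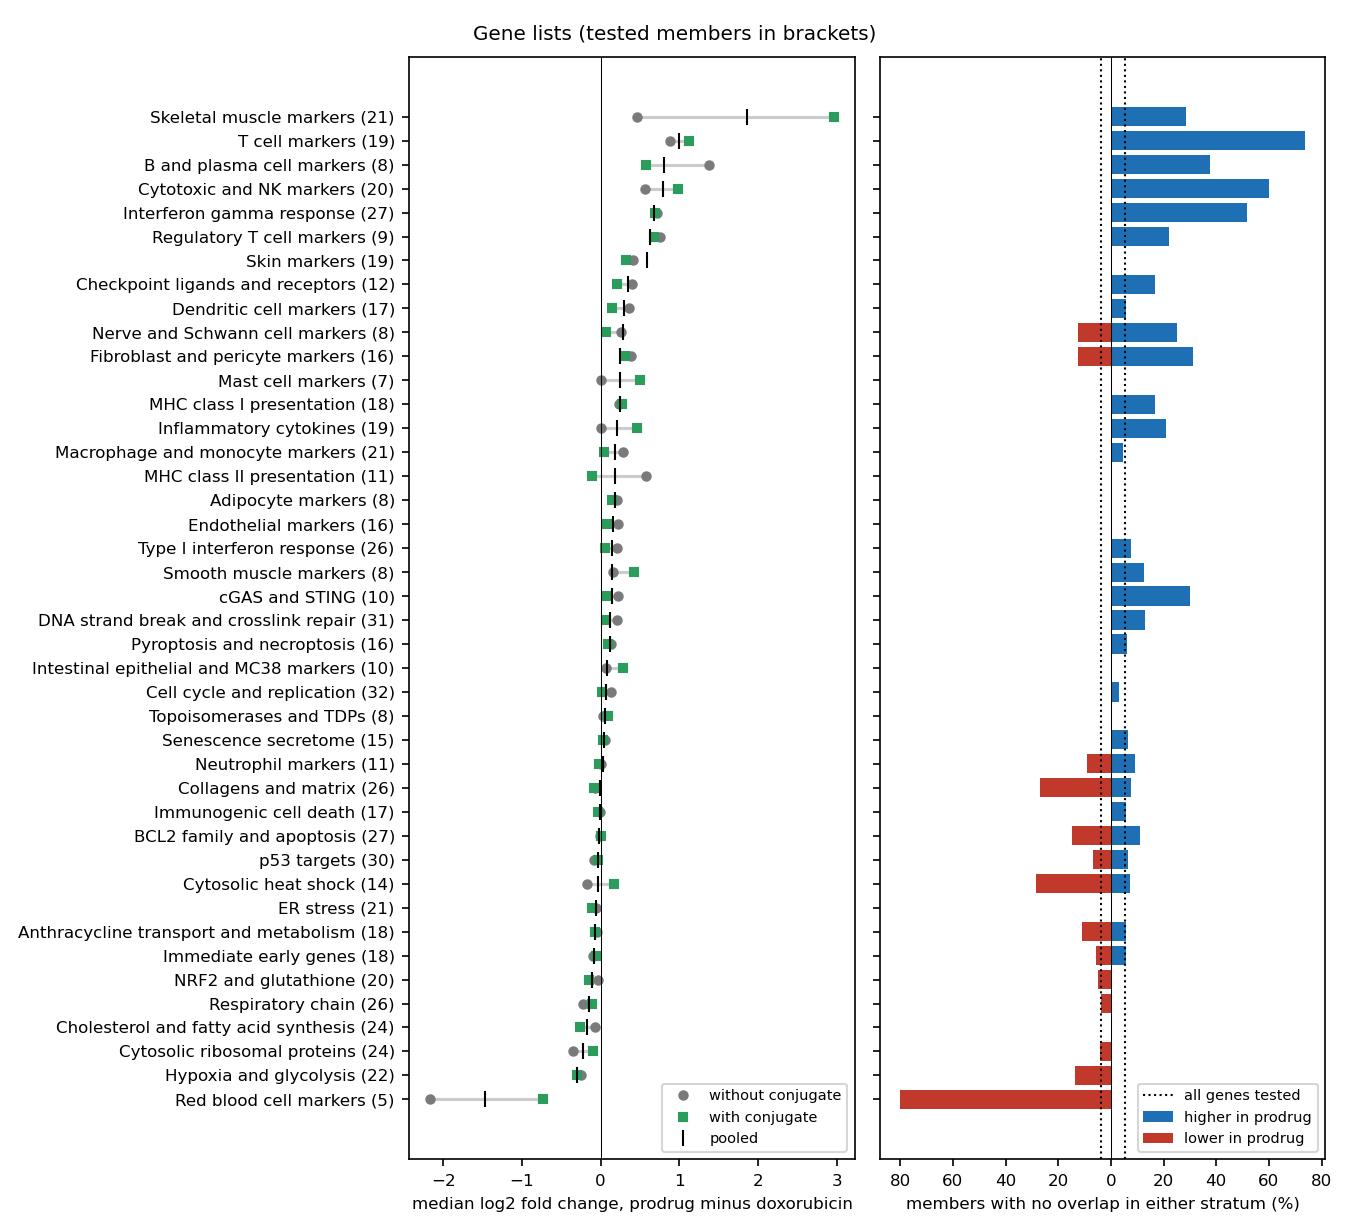
Gene lists with at least 5 tested members (number in brackets). Left, the median log2 fold change of prodrug minus DOX without the conjugate (grey circles), with it (green squares) and pooled (black ticks). Right, the percentage of members with no overlap in either stratum, higher (blue) or lower (red) with the prodrug, beside 5.39% and 3.8% of all genes (dotted lines). T cell, cytotoxic and interferon gamma lists hold 14 of 19, 12 of 20 and 14 of 27 higher members without overlap.

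Among lower genes, the 12 of smallest p differed less in size, with pooled log2 fold changes from -0.76 to -0.43. None passed edgeR's test. Hspa1b, the inducible HSP70 chaperone, was lowest at -0.76 ± 0.16 (SE, edgeR adjusted p = 0.349), with 80.9 and 50.3 CPM in DOX, 42.3 and 37.3 in DPD, 52.0 and 61.1 in R+X, and 35.3 and 29.8 in R+D. Its near-identical copy Hspa1a gave -0.67, and reads of the pair may have been split. All 4 prodrug libraries were below all 4 DOX libraries for Hspa1b. In the heat shock list as a whole, 3 of 14 members were higher and 6 lower in both strata (30% and 32.2% of all genes). The list had 4 members lower without overlap (3.8%) and a median of -0.038, which was 0.035 without DPD replicate 2.

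Bnip3, a mitochondrial protein induced by low oxygen, had 321 and 284 CPM in DOX and 189 and 217.6 CPM in DPD. It had 280 and 331 CPM in R+X and 138 and 227.3 CPM in R+D, again with no overlap between the drugs, and a pooled log2 fold change of -0.66 ± 0.16 (SE, edgeR adjusted p = 0.366). Car9, the carbonic anhydrase used as a marker of hypoxia, gave -0.62, Slc2a1, the glucose transporter GLUT1, -0.65, and P4ha1, a collagen hydroxylase, -0.35. Slc2a1 overlapped without the conjugate, where DOX replicate 2 (197 CPM) lay below DPD replicate 2 (217.9 CPM). Of the 22 hypoxia and glycolysis genes, 1 was higher and 17 were lower in both strata (30% and 32.2% of all genes), and 3 were lower without overlap (3.8%). The median was -0.30, and 10 members were lower at an unadjusted p under 0.05 (2.47% of all genes). Without DOX replicate 1, which had the highest summed level of the list (22317 CPM against 12990 to 17586 in the other 7), the median was -0.18 and 10 members were lower in both strata. Without DOX replicate 2, 15 were lower without overlap. Under that omission the no-overlap total over all 18861 genes, either way, also rose, from 1734 to 4324.

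Nqo1, a quinone reductase of the oxidative stress response that also acts on quinone drugs, had 21.4 and 17.5 CPM in DOX, 15.5 and 13.3 in DPD, 14.7 and 17.5 in R+X, and 10.001 and 10.4 in R+D. It was lower in each stratum, at -0.55 ± 0.13 pooled (SE, edgeR adjusted p = 0.366), while 1 of 20 members of its NRF2 and glutathione list was lower without overlap (3.8% of all genes) and the list's median was -0.11. Other lower genes were Ncam1, an adhesion molecule of nerve cells (-0.58), Ackr3, a scavenger receptor for CXCL12 (-0.45), and Nr2f1, an orphan nuclear receptor (-0.60). Matn2, a matrix adaptor protein, gave -0.63, Adamts7, a matrix protease, -0.47, and Coq8a, which serves coenzyme Q synthesis, -0.60. Ociad2 and Zfp395 gave -0.55 and -0.43.

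For the panel genes of the direct drug response, given here and in the next paragraph, the intervals of prodrug against DOX included 0. Cdkn1a, the p53 target p21, stood at 105 and 66.0 CPM in DOX, 76.4 and 87.3 in DPD, 89.3 and 93.5 in R+X, and 75.3 and 72.6 in R+D. The groups overlapped without the conjugate, and the pooled log2 fold change was -0.19, with a 95% interval of -0.52 to 0.15. Mdm2, the p53 target that degrades p53, gave -0.14 (-0.43 to 0.14). Of 30 p53 targets 8 were higher and 13 lower in both strata (30% and 32.2% of all genes). In each direction 2 did not overlap, shares near the 5.39% and 3.8% of all genes. At an unadjusted p under 0.05 in edgeR, 3 of them were higher and 1 lower (5.13% and 2.47% of all genes). The median was -0.032, or -0.10 to -0.014 with 1 library left out. The drug's targets Top2a and Top2b had intervals from -0.11 to 0.53 and from -0.40 to 0.46.

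Of the drug's exporters, Abcb1a (P-glycoprotein) spanned -0.37 to 0.80 and Abcb1b -0.20 to 0.51. Cbr1, a reductase that turns DOX into its alcohol, spanned -0.63 to 0.71. Gsdme and Gsdmd, the pore proteins of pyroptosis, spanned -0.48 to 0.42 and -0.12 to 0.54. Hmox1, a haem-degrading enzyme of the stress response, spanned -0.76 to 0.12, and Mki67, a marker of cycling cells, -0.024 to 0.84. For these 11 genes a 2-fold difference in either direction lay outside the interval. Of 31 DNA repair genes 18 were higher and 5 lower in both strata (30% and 32.2% of all genes), and 4 were higher without overlap (5.39%). The repair median was 0.12, but 0.032 without DOX replicate 1, 0.039 without DPD replicate 2 and -0.038 with the red blood cell score. Of 32 cell cycle genes 15 were higher and 1 lower in both strata (30% and 32.2% of all genes), and 1 was higher without overlap (5.39%). Their median was 0.066, or 0.030 to 0.11 with 1 library left out.

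**Figure D4:**
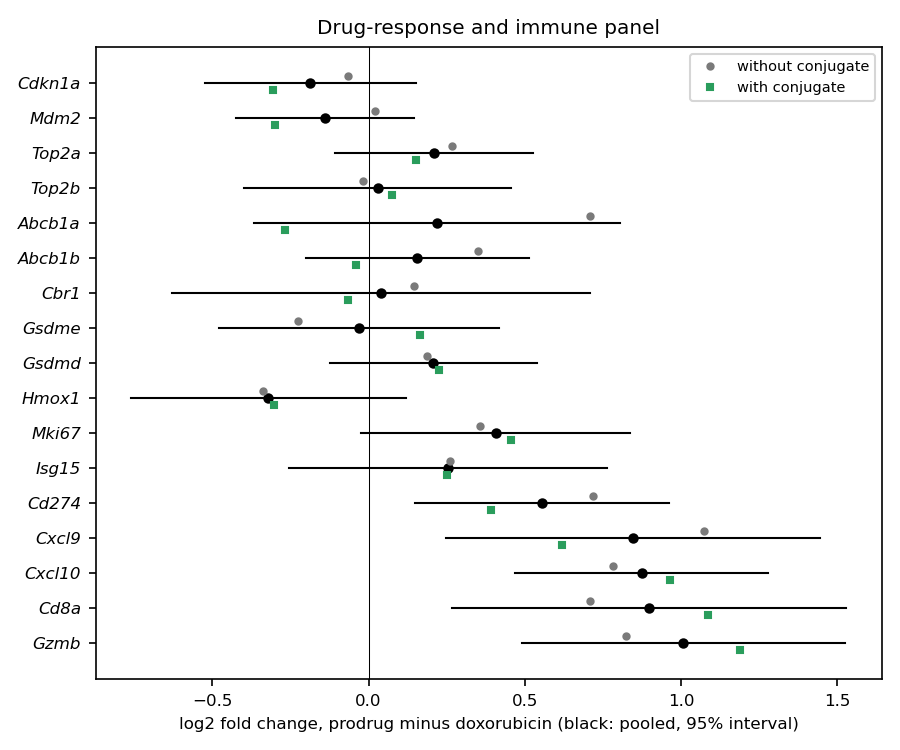
Log2 fold change of prodrug minus DOX (x axis) for a panel of drug-response and immune genes. Black points are pooled values with their 95% intervals, grey circles the values without and green squares those with the conjugate. Intervals of Cdkn1a, Mdm2, Top2a, Top2b and the exporters include 0, and those of Cd274, Cxcl9, Cxcl10, Cd8a and Gzmb lie above 0 before any adjustment over genes.

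Group means were also set beside the groups with neither drug. The named genes were chosen for a low DOX and a high prodrug level, or the reverse. This largely fixes where the DOX, DPD and R+X means lie around a further group, and less so where R+D lies around RP. The positions are a description. They are given beside those of all 1017 higher and 717 lower genes without overlap. The DPD mean lay above the PBS mean for all 12 named higher genes (87.8% of the 1017), and the DOX mean lay below it for 11 of them (75.7%). With the conjugate, the R+X mean lay below that of Ru-PD-L1 alone for all 12 (95.9%), and so did the R+D mean (57.4%). Apol10b, for example, was 8.12 and 7.05 CPM in Ctrl and 25.1 and 23.8 CPM in RP, so its R+D libraries (18.9 and 18.7 CPM) lay between R+X and RP. Of the 19 T cell markers, 18 were below Ctrl with DOX (48.3% of all genes) and 16 above Ctrl with DPD (51.4%). For 18 the R+X mean was below RP (49.9%), and for 17 the R+D mean (49.3%). As 14 of these markers are among the 1017 genes, their positions are largely fixed in the same way. The position of R+D against RP is less so, as it lay below RP for 57.4% of the 1017. Among the 12 lower genes, 11 were above Ctrl with DOX (67.2% of the 717) and 12 below Ctrl with DPD (91.8%). Of the same 12, all were above RP with R+X (94.3%) and 11 below RP with R+D (44.4%). These positions were not tested, and the combined groups differ from RP also in the injection beside the tumour.

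**Figure D5:**
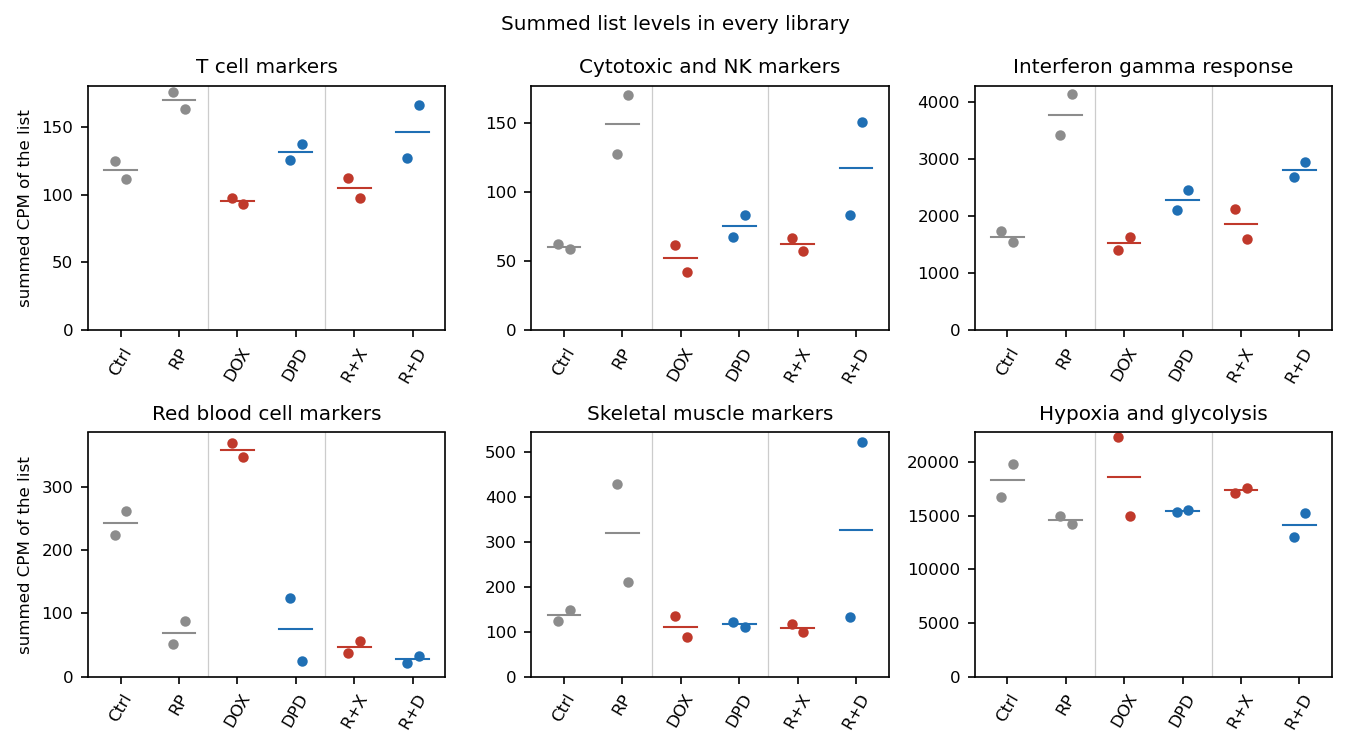
Summed CPM (y axis, from 0) of 6 gene lists in each library, by group, with points for libraries and bars for group means, in red for DOX, blue for the prodrug and grey for groups with neither drug. T cell, cytotoxic and interferon gamma sums are higher with the prodrug in each stratum, red blood cell sums are highest in DOX, and the muscle sum of R+D replicate 2 (523 CPM) stands above the other 7 libraries of the comparison.

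Markers of other tissues also differed between the drugs. The 8 red blood cell markers summed to 369 and 348 CPM in DOX, 124 and 25.3 in DPD, 37.2 and 55.7 in R+X, and 21.7 and 32.6 in R+D. All 5 tested members were lower in both strata and 4 without overlap (3.8% of all genes), with a median of -1.47. Hbb-bt, a beta globin gene, had a log2 fold change of -1.80 ± 0.49 (SE, edgeR adjusted p = 0.393). Of 21 muscle markers 17 were higher in both strata (30% of all genes) and 6 without overlap (5.39%), with medians of 0.47 without and 2.97 with the conjugate. Without R+D replicate 2 the pooled median was 0.60 in place of 1.85. Mb, the oxygen store of muscle, had 0.177 and 0.0811 CPM in DOX, 0.644 and 0.512 in DPD, 0.767 and 0.402 in R+X, and 0.993 and 6.28 in R+D. Ribosomal protein genes had a median of -0.23, with 22 of 24 lower in both strata (32.2% of all genes) and 1 without overlap, near the 3.8% of all genes. Without DOX replicate 1 the median was -0.024 and 10 were lower in both strata. The 19 skin markers summed to 642 CPM in R+D replicate 2, the library with the most muscle and T cell transcripts, and to 326 to 508 CPM in the other 7. Their median was 0.58, but -0.26 without that library. The part of these tissues in the other results was not tested beyond the covariate fits.

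Whether the drug difference itself depended on the conjugate was tested as the difference between strata. EdgeR called 0 of 18861 genes, 313 (1.66%) had an unadjusted p under 0.05, and DESeq2 called 5 genes. The 5 genes of smallest p with at least 1 CPM were Ugt1a6b, Lrch4, Chil3, Mylpf and Itgb2, each with an edgeR adjusted p of 1.00. Itgb2, the shared chain of leukocyte integrins, was 54.1 and 46.02 CPM in DOX and 72.2 and 85.6 in DPD, but 67.7 and 74.2 in R+X and 60.4 and 53.6 in R+D. It was thus higher with DPD in the stratum without the conjugate and lower with R+D in the other. Chil3, a chitinase-like protein of macrophages, had a difference of -3.18 log2 units that rested on R+X, where the libraries had 22.4 and 71.9 CPM, while the other 6 lay between 5.52 and 16.5 CPM. Mylpf, a muscle myosin light chain, had a difference of 5.52 log2 units, with 12.3 CPM in R+D replicate 2 against 0.276 to 2.17 CPM in the other 7 libraries.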

How the data were processed

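Total RNA was extracted with TRIzol and made into libraries with a NEBNext Ultra kit, per the labels' protocols. The authors deposited whole-number counts per gene, not normalised. The build was GRCm38, and HISAT2 2.1.0, StringTie 1.3.5 and DESeq2 appear among the software, per the submitters' processing notes. The sources used here do not give their roles, the annotation or the strand setting, so overlapping and antisense genes cannot be told apart. The table had 43698 rows, of which 504 named no gene, and 895 names occurred 2 times. Coordinates came from RefSeq, where 35987 of 42803 names were found. For the lists, 757 of 758 genes matched.

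Counts of the 8 libraries were fitted in R 4.3.3 with edgeR 4.0.16 (quasi-likelihood, TMM scaling, filterByExpr, conjugate as a block), which tested 18861 genes on 5 residual degrees of freedom. Strata and their difference came from a fit of 4 group means. The threshold was a Benjamini-Hochberg adjusted p of 0.05, and intervals cover 95%. The biological coefficient of variation was 0.248. CPM are TMM-scaled. The scripts were tested on simulated data. Alternatives were DESeq2 1.42.0, limma 3.58.1 voom, other scaling and filters, all 12 libraries, no block, tissue covariates and each library left out. A red blood cell covariate and the omission of DOX replicate 1 with R+D replicate 2 were added after seeing the data.

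Members, lists and panel were chosen with earlier results of these data known. Named are up to 12 genes each way of smallest pooled p with the same sign and no overlap in both strata and at least 1 CPM, up to 4 members of smallest p per list discussed, the panel, and up to 5 genes for the difference between strata. A list is described by counts and medians, with no set test. Other genes named (Ifngr1, Ifngr2, Jak1, Jak2 and single tissue markers) were chosen after their values were seen. Replicate numbers follow accession order and pair nothing.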

Additional observations from a re-analysis of the deposited data

How the results depend on the processing

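No paired analysis was possible because the labels number no replicates. In place of 0 genes by edgeR, DESeq2 called 180 in the pooled comparison, 14 for DPD against DOX, 40 for R+D against R+X and 5 for the difference between strata, and the cause was not tested. Leaving out 1 library gave 0 to 2 genes in the pooled comparison, 0 to 2 for DPD against DOX, 0 to 1 for R+D against R+X and 0 to 2 for the difference. With a skin score as a covariate 2 genes passed for R+D against R+X. A lone library left in a group was assumed to vary like the others. The count of genes without overlap, 1734, ran from 2161 to 4324 when 1 library was left out and was 5389 without DOX replicate 1 and R+D replicate 2, where fewer samples had to separate. The count with the same sign, 11731, ran from 10768 to 12078 when 1 library was left out.

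Signs turned for panel genes whose intervals included 0, among them Ifng (0.54 in the main fit), Abcb1a (0.22) and Top2a (0.21). With the red blood cell score the log2 fold change was -0.053 for Top2a, -0.19 for Abcb1b, -0.57 for Abcb1a, 0.35 for Gsdme and -0.070 for Top2b. With the muscle score it was -0.12 for Ifng. Without DOX replicate 1 and R+D replicate 2 it was 0.0088 for Cdkn1a, 0.069 for Gsdme and -0.06 for Top2b, while Cbr1 kept its sign at 0.36. Leaving out 1 library gave -0.059 to 0.39 for Abcb1a, -0.11 to 0.11 for Gsdme, -0.13 to 0.24 for Top2b and -0.18 to 0.29 for Cbr1, while Cdkn1a kept its sign at -0.33 to -0.075. Medians of the interferon gamma list lay between 0.55 and 0.80 under all 20 alternatives.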

Other observations

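Beyond the lists above, Jchain, which joins antibody chains in plasma cells, was 0.243 and 0.709 CPM in DOX, 1.53 and 10.7 in DPD, 2.49 and 0.479 in R+X, and 4.47 and 15.5 in R+D. It was separated in both strata, with a pooled log2 fold change of 3.18 ± 0.76 (SE, edgeR adjusted p = 0.366). The B and plasma cell list had 8 tested members, 3 of them higher without overlap (5.39% of all genes). Inflammatory cytokines had a median log2 fold change of 0.21, which was 0.082 without R+D replicate 2, -0.12 without DOX replicate 1 and R+D replicate 2, and -0.045 with the muscle score. Of 19 members 4 were higher without overlap (5.39% of all genes), among them Ccl4, Lif and Osm at 0.95, 0.53 and 0.76. Pidd1 and Btg2 were the 2 of 30 p53 targets that were higher without overlap, at 0.49 and 0.47. Another 2 were lower without overlap, shares near the 5.39% and 3.8% of all genes. The median of that list was -0.032.

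Fold changes followed transcript length weakly. Over the 15765 tested genes with a length (83.6%), Spearman's rho between exonic length and the pooled log2 fold change was 0.099, with 0.19 without and -0.036 with the conjugate. With this trend removed, the medians were 0.72 for the interferon gamma list, 1.05 for T cell markers, 0.85 for cytotoxic markers and -0.25 for hypoxia and glycolysis. Genes are not independent replicates, and no p is given.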
